A study of Homo sapiens with 121 samples.

Results

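Ferritin and antioxidant genes were followed in single human embryonic stem cells (hESCs) whose telomere length was known. The 9 genes are FTL and FTH1, the ferritin subunits, and GSTP1, PRDX1, PRDX2, GPX4, TXN, SOD1 and SOD2, which act on reactive oxygen species or on electrophiles. They were chosen by name, and all 9 were found among the 25610 genes of the expression table. The 121 cells belong to WA26, an established hESC line that was grown without feeder cells on Matrigel in E8 medium, picked one at a time and not edited or treated. In scT&R-seq, mRNA of a lysed cell is captured through an oligo-dT primer and sequenced, and the genomic DNA of the same cell gives the T/R ratio, a qPCR measure of telomere repeats against Alu repeats. By the T/R ratio the cells were labelled as 81 long, 25 medium and 15 short telomere cells, with borders at 1 and 0.4. All groups came from 1 line, and no culture or batch is named for any cell, so each group counts as 1 sample and values below are descriptions of these cells with no p-value.

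Ferritin stores iron in a hollow protein shell. The heavy chain, made from FTH1, oxidises ferrous iron, and the light chain, made from FTL, helps to lay down the mineral core. Iron that is not stored can turn hydrogen peroxide into hydroxyl radicals, which links ferritin to the antioxidant enzymes. Superoxide dismutases turn superoxide into hydrogen peroxide, SOD1 in the cytosol and SOD2 in mitochondria. Peroxiredoxins such as PRDX1 and PRDX2 then reduce the peroxide and are themselves reduced by thioredoxin (TXN). GPX4 reduces lipid hydroperoxides with glutathione and so guards against ferroptosis, an iron-dependent form of cell death, and GSTP1, a glutathione S-transferase, conjugates glutathione to electrophiles.

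The genes lie apart from one another in the genome (GRCh37). FTL is on the plus strand of chromosome 19 (chr19:49468566-49470136), which also carries PRDX2 (chr19:12907634-12912614, minus strand) and GPX4 (chr19:1103981-1106790, plus strand). FTH1 (chr11:61727190-61735106, minus strand) and GSTP1 (chr11:67351213-67354127, plus strand) share chromosome 11. PRDX1 (chr1:45976586-46008404, minus strand), SOD2 (chr6:160090101-160183561, minus strand), TXN (chr9:113006090-113018787, minus strand) and SOD1 (chr21:33031979-33041244, plus strand) are single on their chromosomes. All are protein-coding.

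The sequences just before the transcription starts of FTL, GSTP1 and PRDX2 are shown because their levels went up and down together across cells, and that of TXN because its level varied least relative to its mean. Each is the 250 bases before the start in RefSeq's table (GRCh38.p14), read 5′ to 3′ on the gene's strand. Each was placed by its only exact match on that strand of the gene's chromosome in GRCh37, and other chromosomes were not searched. The RefSeq start of GSTP1 lies within the gene span given above, so its window covers the first bases of that span. Capitals mark matches on either strand to 4 motifs: the GC box (GGGCGG), the box bound by the factor NF-Y (CCAAT), the core of the antioxidant response element that the factor NRF2 uses (TGACNNNGC) and the TATA motif (TATAA).
FTL, chr19:49468316-49468565, plus strand: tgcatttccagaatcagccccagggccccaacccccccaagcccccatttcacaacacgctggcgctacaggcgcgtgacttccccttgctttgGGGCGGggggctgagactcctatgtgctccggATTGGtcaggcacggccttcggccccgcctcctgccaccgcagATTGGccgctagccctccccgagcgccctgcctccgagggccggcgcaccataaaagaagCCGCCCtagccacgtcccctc
GSTP1, chr11:67351033-67351282, plus strand: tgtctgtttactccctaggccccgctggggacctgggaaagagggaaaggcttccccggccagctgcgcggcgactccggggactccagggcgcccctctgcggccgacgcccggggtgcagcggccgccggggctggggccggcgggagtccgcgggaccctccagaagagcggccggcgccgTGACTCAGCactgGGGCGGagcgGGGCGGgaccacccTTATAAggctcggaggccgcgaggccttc
PRDX2, chr19:12912615-12912864, minus strand: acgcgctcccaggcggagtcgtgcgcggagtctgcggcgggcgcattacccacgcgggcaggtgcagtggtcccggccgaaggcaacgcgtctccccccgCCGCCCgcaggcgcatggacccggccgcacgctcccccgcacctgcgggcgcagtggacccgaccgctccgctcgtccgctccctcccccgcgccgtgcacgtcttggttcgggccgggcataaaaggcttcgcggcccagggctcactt
TXN, chr9:113018788-113019037, minus strand: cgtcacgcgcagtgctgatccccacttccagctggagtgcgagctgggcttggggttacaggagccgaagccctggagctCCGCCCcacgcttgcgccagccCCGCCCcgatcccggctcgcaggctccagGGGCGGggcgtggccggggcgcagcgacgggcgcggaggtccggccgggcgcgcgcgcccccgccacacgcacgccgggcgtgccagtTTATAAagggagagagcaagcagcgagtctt

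Among these 4 windows, only that of GSTP1 held the antioxidant response element core, TGACTCAGC at -66 from the start, and 10.9% of all 35116 windows in the table held a match. GC boxes, found in 42.6% of all windows, were present in each of the 4, with 2 in FTL, 2 in GSTP1, 1 in PRDX2 and 3 in TXN. CCAAT boxes, in 32.0% of all windows, were found 2 times in FTL and in none of the other 3. TATAA, in 18.9% of all windows, matched in GSTP1 at -28 and in TXN at -30, each time overlapping a match on the other strand. GPX4 has 3 windows and SOD2 has 4, none with the antioxidant response element core. FTH1, PRDX1 and SOD1 have no entry in the table. Over the 11 windows of the 6 genes, G and C made up 67.6% to 80.8% of bases, against a median of 58% over all windows. These matches are letters in a sequence and carry no measurement of binding.

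Ferritin mRNA carries an iron-responsive element near its 5′ end, a hairpin that iron regulatory proteins bind when iron is scarce, which holds back translation. Its letters are shown because ferritin protein need not follow the mRNA levels given below. The windows run on a short way past the transcription start, and only these transcribed bases were searched. In the FTL window the element was found there, with its loop, in capitals, beginning at base 39 of the transcript. The window ends within the hairpin, so the stretch shown holds only part of its 3′ side.
FTL iron-responsive element: tctcttgcttcaaCAGTGTttggac
The search required the loop CAGTGN, a stem that pairs on both sides and an unpaired C before the stem, and 6 of the 35116 windows matched, among them that of ALAS2, a heme synthesis gene whose mRNA is a known target of the same proteins.

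The cells were undifferentiated by their markers, and their libraries differed widely in how many genes they showed. All 12 pluripotency markers were above 1 in TPM, the transcripts per length scaled to a fixed total per cell, in over 50% of cells, POU5F1 in 100% and SALL4, the lowest, in 79.3%. Of 6 endoderm and 5 trophectoderm markers none was above TPM 1 in 50% of cells, of 7 mesoderm markers only KDR was (55.4%), of 6 ectoderm markers 2 were (NES highest, 82.6%), and of 7 fibroblast markers 3 were, with LUM at 0 in every cell, COL3A1 above TPM 1 in none and THY1 highest at 94.2%. The summed pluripotency markers had medians of 3637 TPM among long, 3263 among medium and 1575 among short telomere cells, with ranges of 1559 to 4801, 1033 to 4703 and 819 to 3742. Genes above TPM 1, called detected here, numbered from 2030 to 11515 per cell, with medians of 9165 among long, 8626 among medium and 5620 among short telomere cells. Following an earlier look at these data, cells were split at 8000 detected genes into 68 gene-rich cells (51 long, 14 medium, 3 short) and 53 gene-poor cells (30 long, 11 medium, 12 short). No 2 cells held identical values.

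All of these genes but SOD2 were abundant in the cells. Together they made up 16446 ± 4735 TPM per cell (mean ± SD over 121 cells), from 7630 to 29428. FTL alone had 4702 ± 2306 TPM and ranked 16 of 25610 genes by mean TPM. GSTP1 followed with 3667 ± 2273 TPM (rank 42), PRDX1 with 2709 ± 1410 (rank 64), FTH1 with 1607 ± 1029 (rank 114) and TXN with 1410 ± 478 (rank 136). PRDX2 had 928 ± 857 TPM (rank 201), SOD1 757 ± 625 (rank 238) and GPX4 615 ± 333 (rank 291). SOD2, the mitochondrial dismutase, stood far below at 51.2 ± 64.3 TPM (rank 2220). Levels were set side by side as values per length of transcript. The study describes its TPM as read counts divided by library size factors, which holds no length term, but the lowest value of a gene fell with its length across genes (Spearman's rho -0.55 over 15048 genes), and at most 4.43% of the values above 0 in a cell were equal. The order rests on that reading.

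The first 8 of these genes were above TPM 1 in all 121 cells. SOD2 was above TPM 1 in 95 of 121 cells and listed at 0 in 22. The order of mean levels on the log2(TPM + 1) scale was FTL (12.04 ± 0.73), GSTP1 (11.60 ± 0.85), PRDX1 (11.06 ± 1.26), FTH1 (10.38 ± 1.07), TXN (10.35 ± 0.69), PRDX2 (9.37 ± 1.16), SOD1 (9.29 ± 1.07), GPX4 (8.89 ± 1.52) and SOD2 (4.31 ± 2.53). Only the last step of this order, 4.58 from GPX4 to SOD2, was larger than the SD of both neighbours, and GPX4 was higher than SOD2 in 119 of 121 cells. None of the other steps exceeded the SD of both neighbours. FTH1 and TXN differed by 0.02 on the log2 scale, with FTH1 higher in 56 of 121 cells. PRDX2 and SOD1 differed by 0.08, with PRDX2 higher in 50 of 121 cells. FTL exceeded GSTP1 in 97 of 121 cells, but GSTP1, whose mean was higher, exceeded PRDX1 in only 51.

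The genes also differed in how steady they were from cell to cell. Among the 336 genes that averaged 500 TPM or more, TXN had a lower coefficient of variation (0.339) than almost all, with 7.14% of them lower still. On the log2 scale 8.04% of the 336 genes had a smaller SD than TXN and 13.1% a smaller SD than FTL. At the other end, the SD of GPX4 was larger than that of 85.4% of these genes, and the coefficient of variation of PRDX2 (0.923) was larger than that of 91.4%. FTH1 lay in the middle, with 52.1% of the genes having a smaller SD. SOD2, at its much lower level, had a larger SD than 92.8% of the 6213 genes that averaged 10 TPM or more.

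**Figure D1:**
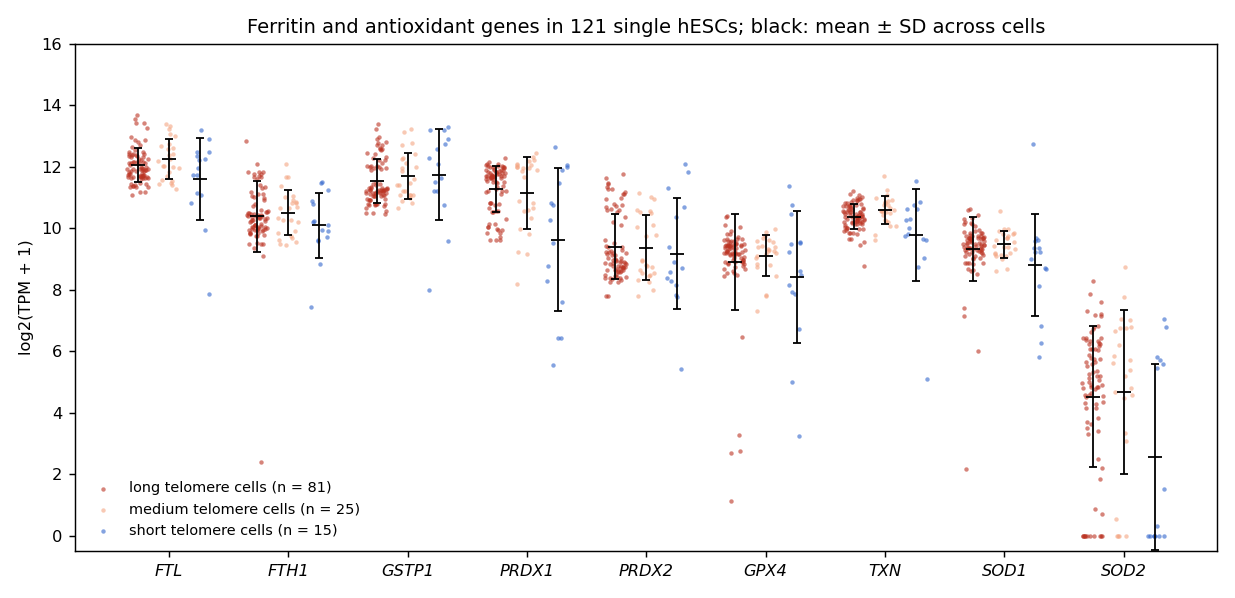
Level of each gene, as log2(TPM + 1), in every cell (points), by telomere length group, with the mean ± SD across cells in black. The groups overlap for all 9 genes, and the spread is widest in the short telomere cells for all genes but FTH1, as for PRDX1 with an SD of 2.33 against 0.76 in long telomere cells.

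GPX4, FTH1, SOD1 and PRDX1 lay far below their medians in a few cells. A cell was called low for a gene when it had less than a 10th of the gene's median TPM. How often other genes were low by this rule was not counted. Whether the numbers below are particular to these genes or to a telomere group is therefore not known. GPX4 was low in 6 cells. These were 4 long telomere cells, Long_3 at 8.56 TPM, Long_4 at 5.67, Long_6 at 1.16 and Long_52 at 5.48, and 2 short telomere cells, Short_6 at 31.03 and Short_13 at 8.46. The median of GPX4 was 602 TPM, and in gene-rich cells it ran from 352 to 1047 TPM, so these few stand well apart. FTH1 was low in 1 cell, Long_4, with 4.23 TPM beside 9846 TPM of FTL in the same cell. SOD1 was low in 3 cells, Long_5 at 3.53 TPM, Long_9 at 62.85 and Short_8 at 55.59.

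PRDX1 was low in 5 cells. They were Short_4 at 191 TPM, Short_6 at 84.8, Short_8 at 84.3 and Short_13 at 46.1, and Medium_23 at 290, against a median of 3120 TPM, so 4 of the 5 were short telomere cells. FTL, PRDX2 and TXN were low in the same single cell, Short_6, and GSTP1 was low in none. All of these low values were found in gene-poor cells, and in the 68 gene-rich cells no gene was low, SOD2 included. SOD2 was low in 28 gene-poor cells, 14 long, 5 medium and 9 short. Leaving SOD2 aside, 110 cells had no low gene, 7 had 1, 3 had 2, and Short_6 had 5. TPM keeps no read numbers, so a missed mRNA molecule and an absent one cannot be told apart.

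Short_6 stood apart from the other cells. It had 232.52 TPM of FTL, 173.55 of FTH1, 255.32 of GSTP1, 84.80 of PRDX1, 41.41 of PRDX2, 31.03 of GPX4 and 33.34 of TXN, and SOD2 was listed at 0. FTL, GSTP1, PRDX2 and TXN had their lowest value of all 121 cells there. SOD1 was the exception, with 6826 TPM, its highest value of all cells and 9.97 times its median. The cell had 6046 detected genes, and 31 cells had fewer. Results that involve short telomere cells are therefore given also without this cell where it matters.

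Short telomere cells had lower PRDX1 and SOD2 than long telomere cells on average, and the other 7 genes differed by less than 1 on the log2 scale. The comparison asks whether iron storage and peroxide-removing genes vary with telomere length between cells of one line. PRDX1, the most abundant peroxiredoxin here, ranged from 779 to 5021 TPM in long telomere cells with a median of 3195, from 290 to 5591 in medium ones with a median of 3723, and from 46.1 to 6365 in short ones with a median of 1239. Both the lowest and the highest PRDX1 value of all cells belonged to the short group, so the groups overlapped fully. The difference of mean log2(TPM + 1) was 1.65 between long (11.29 ± 0.76) and short telomere cells (9.63 ± 2.33), and taking every long with every short telomere cell, the long one was higher in 68.9% of pairs. That difference is smaller than the SD of the short group.

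SOD2 had a median of 31.1 TPM in long telomere cells (0 to 313), 40.5 in medium ones (0 to 430) and 0.25 in short ones (0 to 132). It was above TPM 1 in 68 of 81 long, 20 of 25 medium and 7 of 15 short telomere cells. The long minus short difference was 1.97, from 4.52 ± 2.28 to 2.55 ± 3.03, again within the SD of either group. PRDX1 and SOD2 were the 2 of 9 genes with a difference of at least 1, both higher in long telomere cells. The same held for 66.5% of the 6213 genes that averaged 10 TPM or more, and 1.71% were higher in short telomere cells by that much. The median difference of the 9 genes was 0.48, below the 1.40 of all 6213 genes, and 8 of the 9 were above 0 against 90.94% of all genes.

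The ferritin genes differed little between the groups. FTL had medians of 3904 TPM among long telomere cells (2182 to 13322), 4633 among medium ones (2465 to 10840) and 3993 among short ones (233 to 9372). The long minus short difference was 0.44 on the log2 scale, or 0.17 without Short_6, with the long cell higher in 54.2% of pairs. FTH1 had medians of 1289 TPM among long telomere cells (4.23 to 7368), 1626 among medium ones (708 to 4358) and 1112 among short ones (174 to 2882). Its difference was 0.28, or 0.09 without Short_6. For both subunits the groups overlapped, and the difference was smaller than the SD within either group.

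On TPM as deposited, GSTP1 alone among the 9 genes had a higher mean in short telomere cells. Under scaling by median ratios 7 of the 9 did, all but PRDX1 and SOD2. On that scale 80.6% of all genes had a higher mean in long telomere cells. The medians of GSTP1 were 2448 TPM among long telomere cells (1416 to 10852), 2838 among medium ones (1623 to 9733) and 4335 among short ones (255 to 9985). The long minus short difference was -0.21, from 11.53 ± 0.72 to 11.74 ± 1.47, and -0.48 without Short_6, and the long cell was higher in 37.1% of pairs. PRDX2, the other peroxiredoxin, had medians of 503 TPM among long telomere cells (220 to 3465), 485 among medium ones (221 to 2271) and 419 among short ones (41.4 to 4370), with a difference of 0.23 that became -0.04 without Short_6. Neither difference reached the spread across cells.

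TXN, GPX4 and SOD1 had lower means in short telomere cells, by 0.48 to 0.60, which was smaller than the SD of the short group for each. TXN had medians of 1353 TPM among long telomere cells (434 to 2387), 1530 among medium ones (791 to 3310) and 1034 among short ones (33.3 to 2972), with a difference of 0.60, or 0.27 without Short_6. GPX4 had medians of 602 (1.16 to 1361), 615 (158 to 1004) and 394 TPM (8.46 to 2658) in the same order, with a difference of 0.48, or 0.24 without Short_6. SOD1, the cytosolic dismutase, had medians of 710 (3.53 to 1585), 685 (391 to 1527) and 594 TPM (55.6 to 6826), with a difference of 0.51 that grew to 0.79 without Short_6. For each of these 3 genes some short telomere cell lay above the highest long telomere cell, but for SOD1 this was Short_6 alone.

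Medium telomere cells were close to long ones. None of the 9 genes differed by 1 or more between long and medium telomere cells, as was the case for nearly all genes, since 1.75% were higher in long and 0.66% higher in medium telomere cells by that much. The differences ran from -0.20 (FTL, GPX4 and TXN) to 0.13 (PRDX1), with a median of -0.16 against 0.14 over all genes. Against short telomere cells, medium ones were higher by 1.53 in PRDX1 and 2.13 in SOD2, and all the other differences lay between -0.03 (GSTP1) and 0.81 (TXN). Of all genes, 59.9% were higher in medium telomere cells by at least 1 and 2.01% higher in short ones. The comparisons share cells and are not independent of each other.

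The differences in PRDX1 and SOD2 were not seen among gene-rich cells. Only 3 short telomere cells were gene-rich, Short_1, Short_3 and Short_10. They had 3783, 4253 and 6365 TPM of PRDX1, all above the median of 3404 TPM in the 51 gene-rich long telomere cells (1124 to 5021). The long minus short difference of PRDX1 there was -0.50. SOD2 stood at 131.74, 47.48 and 55.12 TPM in the same 3 cells, with a difference of -0.93. None of the 9 genes reached a difference of 1 among gene-rich cells, where 12.7% of all genes were higher in long and 6.94% higher in short telomere cells by that much, and the medians were -0.10 for the 9 genes and 0.04 for all genes.

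Among gene-poor cells, 30 long and 12 short, PRDX1 was higher in long telomere cells by 1.60 and SOD2 by 1.68. FTL and PRDX2 followed with 0.91 and 0.90 and TXN with 0.64, and all 9 genes had a difference above 0. Here 51% of all genes were higher in long and 3.9% higher in short telomere cells by at least 1, and the median over all genes was 1.03, against 0.64 for the 9 genes. The number of detected genes thus moved with the telomere length group, and its part in the differences over all cells was not tested.

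**Figure D2:**
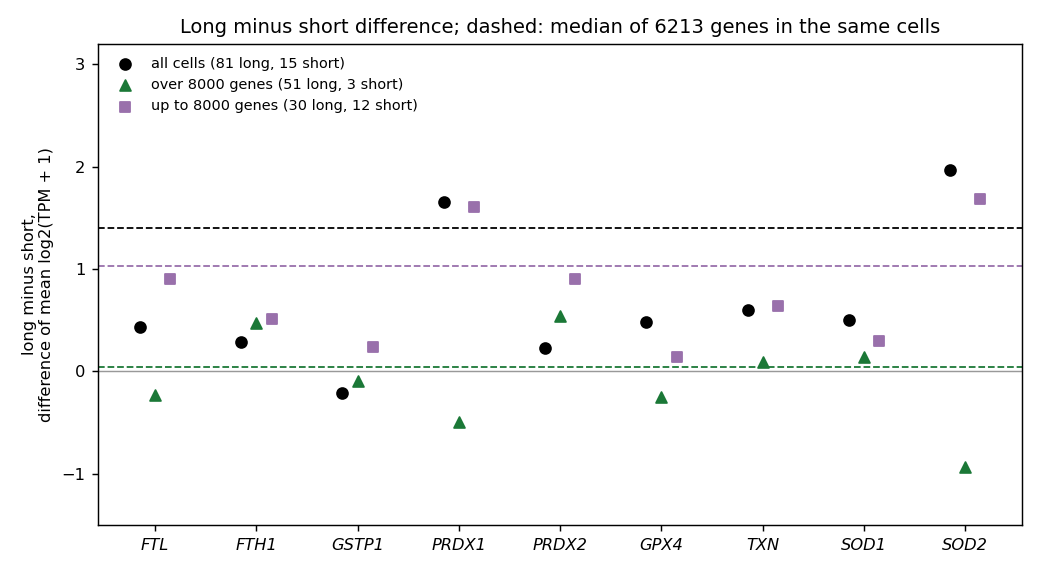
Long minus short difference of mean log2(TPM + 1) for each gene in all cells (circles), in gene-rich cells (triangles, with over 8000 detected genes) and in gene-poor cells (squares), with the median of 6213 genes dashed in the same colours. PRDX1 and SOD2 lie above 1 in all and in gene-poor cells and below 0 in gene-rich cells.

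On TPM over all cells, the T/R ratio itself, which the study lists for each cell, was nearly unrelated to all 9 genes. Pearson's r of TPM with the T/R ratio over 121 cells ran from -0.113 (TXN) and -0.106 (GPX4) to 0.101 (PRDX2). No gene reached 0.2 in either direction, which 11.7% of all genes did with a positive and 2.09% with a negative r. FTL had an r of 0.025 and FTH1 of 0.038, inside the middle 90% of all genes, from -0.167 to 0.258. Spearman's rho lay between -0.110 (TXN) and 0.158 (SOD1). With the 2 most extreme T/R ratios left out, r ran from -0.106 (GPX4) to 0.0931 (PRDX2). When both scales were logarithmic, r was 0.374 for PRDX1 and 0.223 for SOD2, and the other genes stayed within 0.2. On TPM the r of PRDX1 was -0.028 over all cells, -0.245 within gene-rich and 0.048 within gene-poor cells.

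Within the groups the relation had no common sign. In long telomere cells r was 0.351 for GSTP1, 0.296 for PRDX2 and -0.362 for PRDX1. In the 15 short telomere cells it was -0.657 for GSTP1 and 0.448 for SOD2. PRDX1 had an r of 0.408 in medium and 0.227 in short telomere cells, so its sign among long telomere cells was the opposite of that in the other groups. No test was made of these coefficients.

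Over all cells, how a gene varied with the number of detected genes separated the 9 genes more clearly than telomere length. PRDX1 rose with it, with a Spearman's rho of 0.680, a value that 0.435% of all genes reached or passed. SOD2 (0.379), SOD1 (0.283), GPX4 (0.169) and TXN (0.0867) were also positive, around the median of 0.321 over all genes or below it. FTL (-0.404), PRDX2 (-0.483), FTH1 (-0.484) and GSTP1 (-0.541) ran the other way, and 1.69% of all genes had a rho of -0.4 or lower. Within gene-rich cells rho was 0.256 for PRDX1, -0.394 for FTL, -0.457 for FTH1, -0.207 for GSTP1 and -0.105 for PRDX2. It was 0.035 for SOD2, 0.012 for GPX4, -0.036 for SOD1 and -0.196 for TXN there. Within gene-poor cells PRDX1 had 0.277 and SOD2 0.479, and FTL, FTH1, GSTP1 and PRDX2 lay between -0.136 and -0.443. TPM values of a cell sum to a fixed total, so these levels are shares of a library, and the amount of mRNA per cell was not measured.

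The differences between the 2 sets of cells had the same signs as the rho over all cells. PRDX1 had a median of 3664 TPM (1124 to 6365) in gene-rich and 1293 TPM (46.1 to 4384) in gene-poor cells, a difference of 1.55 on the log2 scale, and the gene-rich cell was higher in 88.7% of pairs. PRDX2 had a median of 441 TPM (221 to 1597) in gene-rich and 1476 TPM (41.4 to 4370) in gene-poor cells, a difference of -1.12 in the opposite direction. GSTP1 had medians of 2358 TPM (1416 to 7116) and 4873 TPM (255 to 10852), a difference of -0.79. The differences of FTH1 and FTL were -0.44 and -0.28, and those of TXN, SOD1 and GPX4 were 0.26, 0.54 and 0.89. SOD2 was above TPM 1 in 68 of 68 gene-rich and 27 of 53 gene-poor cells, with a difference of 2.29. PRDX1 and SOD2 thus were higher in gene-rich cells by at least 1, as were 69.1% of all genes. PRDX2 was lower by at least 1, which 0.676% of all genes were, and 7.71% of all genes were lower by any amount, as 4 of the 9 genes were.

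They kept their direction when cells were scaled by median ratios, using the 602 genes that no cell lists at 0. The difference was then 1.29 for PRDX1, -1.37 for PRDX2, -1.04 for GSTP1, -0.69 for FTH1 and -0.54 for FTL, while the median of all genes moved from 1.45 to 1.28. TXN differed by 0.01 on this scale.

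The ratio of PRDX1 to PRDX2 within a cell fell into 2 ranges with few cells between. These peroxiredoxins are close relatives that remove the same substrate in the cytosol. The log2 ratio had a median of 2.62 and ran from -3.33 to 4.47. It was 2 or more in 74 cells, below 1 in 43 cells and between 1 and 2 in only 4. Of the 68 gene-rich cells 62 were in the upper range and 6 in the lower. Of the 53 gene-poor cells 12 were in the upper range, 37 in the lower and 4 between. A ratio within a cell does not depend on the scaling of TPM.

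Both ranges were found in each telomere length group. In long telomere cells 57 had a ratio of 2 or more and 24 a ratio below 1. In medium telomere cells the numbers were 13 and 10, and in short telomere cells 4 and 9, with 2 cells between in either group. PRDX2 was higher than PRDX1 in 31 of 121 cells, 20 long, 4 medium and 7 short. The r of the ratio with the T/R ratio was -0.001, and its rho with the number of detected genes was 0.672.

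The ferritin subunits kept a steadier ratio. FTL was higher than FTH1 in 120 of 121 cells, with a mean log2 ratio of 1.66 ± 1.07. In the 68 gene-rich cells it was 1.73 ± 0.48, from 0.30 to 3.00. In gene-poor cells the ratio reached from -1.30 to 10.88, the last value being that of Long_4, in which FTH1 was nearly missing. SOD1 was higher than SOD2 in 121 of 121 cells, by 4.98 ± 2.39 on the log2 scale. The r of these ratios with the T/R ratio was 0.101 for ferritin and -0.019 for the dismutases.

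**Figure D3:**
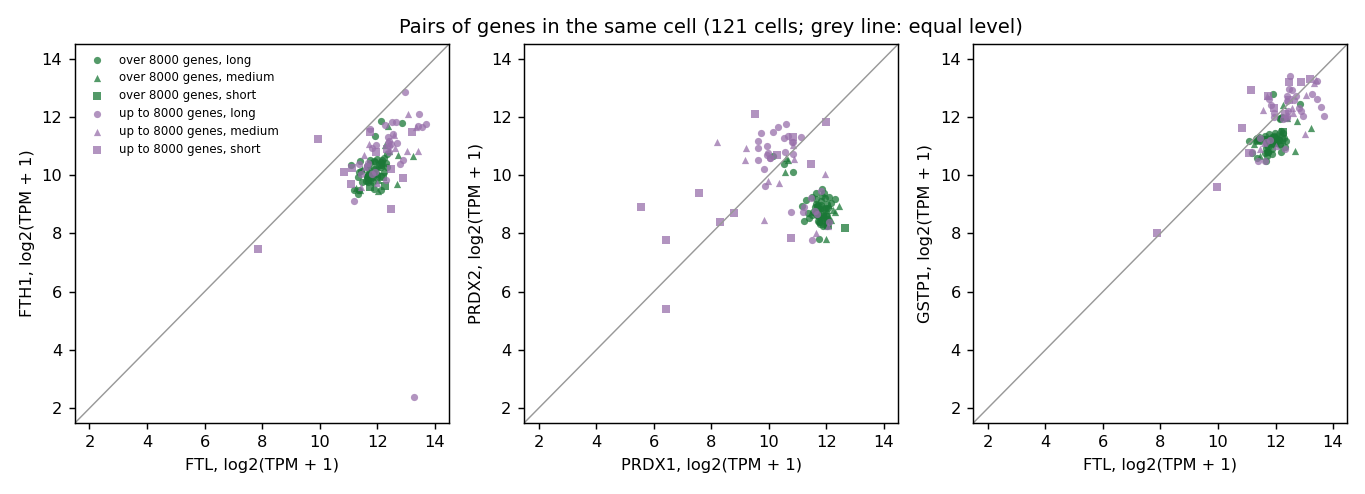
Pairs of genes in the same cell as log2(TPM + 1), for FTL and FTH1 (left), PRDX1 and PRDX2 (middle) and FTL and GSTP1 (right), with colour for the number of detected genes, symbols for telomere length and a grey line where both are equal. In the middle panel most gene-rich cells form one cloud, with 62 of 68 at a log2 ratio of at least 2, and most gene-poor cells lie nearer to the line of equal levels or above it.

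Levels of 4 genes went up and down together across the 121 cells. Spearman's rho was 0.68 between GSTP1 and PRDX2, 0.63 between FTL and GSTP1, 0.61 between FTH1 and PRDX2, 0.59 between FTH1 and GSTP1, 0.54 between FTL and PRDX2 and 0.53 between FTL and FTH1. Among pairs of the 336 genes that averaged 500 TPM or more, the median rho was 0.04 and 6.86% of pairs reached 0.5. All genes of a cell come from 1 library and share its number of detected genes. Given that number, the partial rho was 0.57 for GSTP1 and PRDX2, 0.54 for FTL and GSTP1, 0.49 for FTH1 and PRDX2 and 0.42 for the ferritin subunits.

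Over all cells PRDX1 ran against this group. Its rho was -0.53 with GSTP1, -0.52 with FTH1, -0.48 with PRDX2 and -0.29 with FTL, and 0.36 with SOD1. GPX4 and TXN were close to 0 with the rest, although PRDX1 and PRDX2 are substrates of thioredoxin. Within the 68 gene-rich cells the positive relations were weaker but kept their sign, at 0.50 for FTL and FTH1, 0.47 for FTL and GSTP1, 0.45 for GSTP1 and PRDX2 and 0.21 for FTL and PRDX2. The negative relations of PRDX1 there were -0.42 with FTH1, -0.32 with PRDX2 and -0.16 with GSTP1, and with FTL the rho was 0.04. Given the number of detected genes, its partial rho over all cells was -0.26 with GSTP1, -0.29 with FTH1, -0.24 with PRDX2 and -0.02 with FTL. Within gene-poor cells its rho was -0.31 with GSTP1, -0.21 with FTL, -0.14 with FTH1 and -0.08 with PRDX2. In short telomere cells it was -0.12 with GSTP1, 0.02 with FTH1, 0.18 with PRDX2 and 0.21 with FTL.

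**Figure D4:**
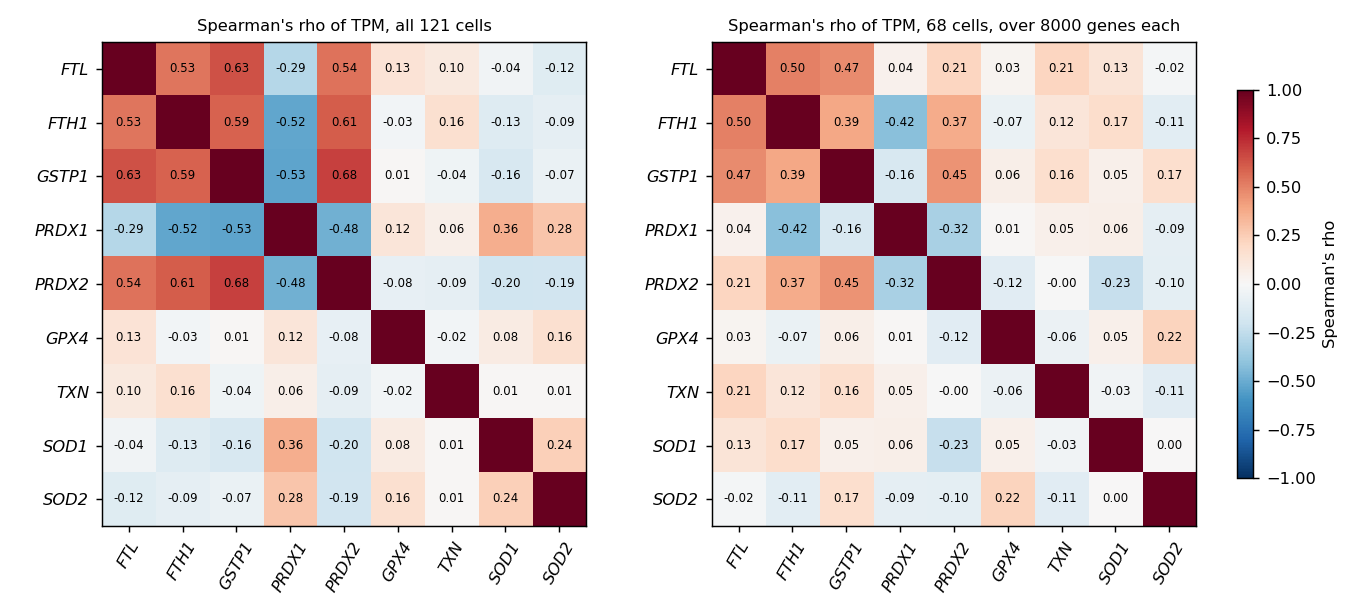
Spearman's rho of TPM between each pair of the 9 genes over all 121 cells (left) and over the 68 gene-rich cells (right), from blue (-1) to red (1). FTL, FTH1, GSTP1 and PRDX2 form a positive block, with values of 0.53 to 0.68 over all cells. PRDX1 is negative with each of them over all cells, but at 0.04 with FTL over the gene-rich cells.

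Genes outside the 9 were ranked by their rho with each of them, and the nearest are given for 8 of the 9. Nearest to FTL over all cells were PFN1 (profilin, an actin-binding protein, 0.661), COX4I1 (a cytochrome c oxidase subunit, 0.607) and PSMD4 (a proteasome subunit, 0.606). GSTP1 was nearest to PFN1 (0.763) and to the respiratory complex I subunits NDUFA6 (0.753) and NDUFA13 (0.727). FTH1 and PRDX2 shared HMGN2, a chromatin protein, among their nearest 3, with 0.633 and 0.662. PRDX1 had other neighbours, ESRG (0.767), a transcript known from pluripotent cells, the translation elongation factor EEF1A1 (0.763) and the ribosomal protein gene RPS13 (0.731), and RPS13 was near it in gene-rich cells too (0.555). The highest values for TXN (INO80C, 0.477), SOD2 (MAPRE1, 0.461) and SOD1 (MT1X, 0.412) were lower. In gene-rich cells PFN1 stayed among the nearest 3 of FTL (0.510), NDUFA13 among those of GSTP1 (0.567) and INO80C among those of TXN (0.521). Of the other pairs named here, only RPS13 with PRDX1 stayed among the nearest 3 there.

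Ferritin and several of the other genes have processed copies in the genome, which can share reads with them. The GRCh37 annotation names 25 pseudogenes after FTH1, 16 after FTL, 7 after TXN, 4 after PRDX2, 3 after SOD1 and 1 each after GSTP1, PRDX1 and SOD2. The expression table held 3 such rows, FTLP10, FTH1P3 and FTH1P18, with mean levels of 0.392, 0.231 and 0.0329 TPM. They were above TPM 1 in 11, 5 and 2 cells. How reads that match a gene and its copy equally were assigned is not given in the sources used here, so the levels of FTH1 and FTL carry that uncertainty.

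The other genes of these pathways had larger long minus short differences than the 9. Of 105 genes in 6 lists, 78 averaged 10 TPM or more, and 58 of these 78 were higher in long telomere cells by at least 1 and none higher in short ones, against 66.5% and 1.71% of all genes. Their median difference was 1.46, near the 1.40 of all genes. Among gene-rich cells 5 were higher in long and 11 in short telomere cells, with a median of -0.06, against 12.7% and 6.94% of all genes and a median of 0.04.

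In iron handling, 12 of 15 genes were higher in long telomere cells by at least 1, with a median of 1.76. Over all genes the share was 66.5% and the median 1.40. FBXL5, an iron sensor that targets an iron regulatory protein for degradation, differed by 2.91, ACO1 and IREB2, the iron regulatory proteins that bind the element shown above, by 2.62 and 2.54, and PCBP1, an iron chaperone that loads ferritin, by 2.20 from a mean of 282 TPM. TFRC, the transferrin receptor, was at 23.4 TPM and differed by 1.99. Among gene-rich cells these differences were 0.03 for FBXL5, 0.16 for ACO1, -0.81 for IREB2, 0.42 for PCBP1 and 0.29 for TFRC. The iron exporter SLC40A1, transferrin (TF) and mitochondrial ferritin (FTMT) were at 0 in all cells, and HMOX1, which releases iron from heme, had a mean of 8.18 TPM and fell below the minimum of 10.

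In glutathione metabolism, 19 of 24 genes were higher in long telomere cells by at least 1, against 66.5% of all genes. The median was 1.60, against 1.40 over all genes. MGST1, a membrane-bound glutathione transferase that also reduces lipid peroxides, was the most abundant at 1810 TPM, more than GPX4, and differed by 2.57, with the long cell higher in 83.5% of pairs. Among gene-rich cells it differed by 0.27. PGD, an NADPH-making enzyme, differed by 2.77, and MGST3 by 0.15.

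Of 15 thioredoxin and peroxiredoxin genes 12 were higher in long telomere cells by at least 1, against 66.5% of all genes. The median was 1.72, against 1.40 over all genes. The mitochondrial PRDX3 had 1325 TPM and differed by 1.80, PRDX6 had 825 TPM and differed by 2.16, and PRDX5 differed by only 0.20. In gene-rich cells PRDX3 differed by 0.03 and PRDX6 by -0.35. GLRX, a glutaredoxin, differed by 2.88 over all cells.

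Among 5 superoxide, catalase and copper genes 1 was higher in long telomere cells by at least 1, PON2 at 1.05, with a median of 0.58. PON2 differed by -1.35 among gene-rich cells, and no gene of this list reached 1 without Short_6, under scaling by median ratios or with a pseudocount of 10. PARK7, a redox-sensitive protein also called DJ-1, had 1117 TPM and a difference of -0.12. Catalase (CAT) had a mean of 9.05 TPM, under the minimum. Of 12 genes of the NRF2 system, the stress response that acts on GSTP1, TXN and the ferritin genes, 9 were higher in long telomere cells by at least 1, with a median of 1.41. NFE2L2, which encodes NRF2, differed by 1.24 and its repressor KEAP1 by 1.84, and the target gene NQO1 by 0.72. Among gene-rich cells none of the 12 was higher in long and 2 were higher in short telomere cells by at least 1, with a median of 0.13, and NQO1 differed by -0.64. Over all genes the shares higher in long telomere cells were 66.5% in all and 12.7% in gene-rich cells, and 6.94% were higher in short telomere cells among the latter.

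**Figure D5:**
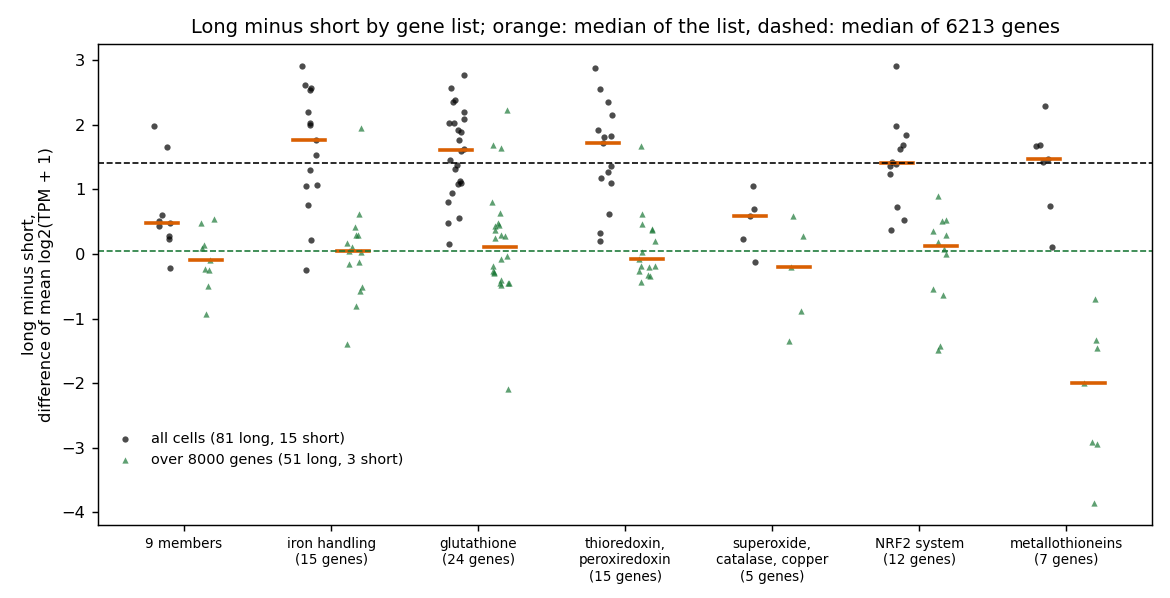
Long minus short difference of mean log2(TPM + 1) for the 9 genes and for the genes of 6 lists that averaged 10 TPM or more, in all cells (circles) and in gene-rich cells (triangles), with the median of each list in orange and the median of 6213 genes dashed. The medians of the lists over all cells run from 0.58 to 1.76, against 0.48 for the 9 genes, and the metallothioneins stand lowest among gene-rich cells, at -2.00.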

How the data were processed

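Reads of 50 bp were aligned by the authors to hg19 using TopHat, and HTSeq counted them over RefGene genes. RSEM also appears in the submitters' processing notes. The study describes its TPM as raw counts scaled by library size with a size factor function of DESeq, and a step that divides by length is not given in the sources used here. The deposited table holds TPM for 121 cells. The lowest values above 0 were smaller for long genes (TTN, 0.01) than for short ones (MT1X, 1.06), with a Spearman's rho of -0.55 against the longest GENCODE transcript over the 15048 genes above 0 in at least 5 cells, and the values were used as per length. Its 25610 full rows, sorted by symbol, were used, with TPM sums of 979828 to 997050 per cell, and genes after these were not analysed here. TPM keeps no read number, so depth is unknown and no counting interval was given. T/R ratios were those listed by the study.

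From the deposited TPM, differences of mean log2(TPM + 1) were computed, with the SD across cells. Differences of at least 1 were counted over the 6213 genes that averaged 10 TPM or more. A pseudocount understates the change of low genes. Correlations used TPM. The gene list, pathway lists, the border of 8000 detected genes and named genes (all members, the 3 largest and 3 smallest differences and the 2 most abundant genes of each list, the 3 genes most like each member) were chosen with earlier results of these data known, and not every gene named by the rule is printed. The genes most like GPX4 are not reported here. TFRC, IREB2, SLC40A1, TF, FTMT, HMOX1, NFE2L2 and CAT are list genes named for their known role after values were seen. Gene positions are from GENCODE on GRCh37. Promoters came from RefSeq's table and were matched to GRCh37.

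Alternatives were pseudocounts of 0.1 and 10, medians, no filter on mean TPM, Spearman's rho, logarithmic scales, gene-rich or gene-poor cells alone, scaling without 87 ribosomal protein genes or by median ratios and, added after seeing the data, leaving out Short_6. Calculations were tested on simulated data. Python 3.11.15, numpy 2.4.6, pandas 2.3.3 and matplotlib 3.10.9 were used.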

Additional observations from a re-analysis of the deposited data

How the results depend on the processing

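The long minus short differences above 0 changed with the set of cells used and with scaling, and the part of the number of detected genes was not tested. Among gene-poor cells PRDX1 stayed at 1.60 and SOD2 at 1.68. Among gene-rich cells, with only 3 short telomere cells, PRDX1 turned to -0.50 and SOD2 to -0.93, and no member differed by 1. The numbers over the 6 lists became 5 higher in long and 11 higher in short telomere cells, against 12.7% and 6.94% of all genes. The list medians there were -0.0838 for thioredoxin and peroxiredoxin genes, -2.00 for metallothioneins and -0.0553 for all lists. Scaling by median ratios gave -0.33 for FTL, -0.49 for FTH1, -0.98 for GSTP1, -0.54 for PRDX2, -0.28 for GPX4, -0.16 for TXN, -0.26 for SOD1, 0.89 for PRDX1 and 1.80 for SOD2, with a median of -0.28, so 7 members were higher in short telomere cells, and 1 member and 38 list genes were higher in long telomere cells by at least 1. It moved the median of all genes from 1.40 to 1.02 and the share above 0 from 90.9% to 80.6%. Of the 6213 genes, 3158 were then higher in long telomere cells by at least 1, against 4132 on TPM as deposited. A pseudocount of 10 left 1 member and 25 list genes, and 1443 of the 6213 genes, and medians put SOD2 at 4.68. With no filter on mean TPM, or in gene-poor cells, 1 list gene was higher in short telomere cells. Without Short_6 the difference was 0.17 for FTL, 0.09 for FTH1, -0.48 for GSTP1, 1.42 for PRDX1, -0.04 for PRDX2, 0.24 for GPX4, 0.27 for TXN, 0.79 for SOD1 and 1.79 for SOD2. Still higher in long telomere cells by at least 1 were 2 members and 54 list genes, and 3964 of the 6213 genes. The median over all genes was 1.33.

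Correlations with the T/R ratio came to -0.170 for FTL, -0.245 for PRDX1, 0.0844 for GPX4 and 0.137 for SOD1 in gene-rich cells. With median ratios it was -0.124 for FTH1, -0.115 for GSTP1, -0.205 for TXN and -0.213 for GPX4, so TXN and GPX4 passed 0.2 in the negative direction. On logarithmic scales it was -0.102 for GSTP1, 0.374 for PRDX1, -0.0035 for GPX4, 0.152 for TXN, 0.131 for SOD1 and 0.223 for SOD2. Spearman's rho was 0.0482 for GPX4, 0.158 for SOD1 and 0.0777 for SOD2. The cause of these changes was not tested. No paired analysis was possible because no result comes from a test and equal cell numbers in the groups name different cells. TPM gives no depth, so low values of SOD2 cannot be weighed against reads missed.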

Other observations

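Metallothioneins, small cysteine-rich proteins that bind zinc and copper and are counted among the antioxidant proteins, went their own way. Over all cells, 5 of the 7 genes were higher in long telomere cells by at least 1, as were 66.5% of all genes, with a median of 1.47. Among gene-poor cells it was 1 of the 7, with a median of 0.46, against 51% of all genes. Among gene-rich cells the median was -2.00, and 6 of the 7 were higher in the 3 short telomere cells by at least 1, from -1.33 for MT2A to -3.85 for MT1M, and MT1X differed by -0.70. Of all genes, 6.94% were higher in short telomere cells by at least 1 there. MT1G, the most abundant with a mean of 829 TPM, differed by 1.67 over all cells and by -2.00 among gene-rich cells. All 7 had a negative Pearson's r of TPM with the T/R ratio, from -0.231 (MT2A) to -0.0839 (MT1X). These genes are close copies of one another and can share reads, and the gene-rich values rest on 3 short telomere cells.

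GSTM3, a mu class glutathione transferase with a mean of 7.87 TPM and so below the minimum of 10, was higher in short telomere cells by 2.19 on the log2 scale, with 19.4% of pairs showing the long telomere cell above the short one. Its difference was -1.27 among gene-rich and -2.21 among gene-poor cells. It was named after its values were seen.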
